A study of Mus musculus with 2 samples.

Results

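Grb2, Sos1, Frs2, Ptpn11, Shc1, Gab1, Rasa1, Nf1 and Ksr1 encode adaptors and regulators that sit between receptor tyrosine kinases and RAS, or between RAS and the RAF, MEK and ERK kinases. The 9 genes were taken by the gene name that the array assigns to its probes, which gave 23 of the 56605 non-control probes and 9 of the 21018 genes measured on both arrays. Naming the probes through RefSeq gave the same 23. The RNA came from 46C, a mouse embryonic stem cell line with a fluorescent reporter in the Sox1 gene, kept in serum with LIF on a feeder layer that was taken away before harvest. One group has the genotype label shCtrl, a control short hairpin, and the other shLincU, a short hairpin against the long noncoding RNA LincU, with 1 one-colour array per group and no other difference given between them. The title of the control calls it WT, and the number of hairpins or clones behind either group is not stated in the labels. The question named in the study's title is whether LincU protects naive pluripotency through lower ERK activity.

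When an FGF receptor is activated, the docking protein FRS2 is phosphorylated on tyrosine and recruits GRB2 and the phosphatase SHP2, the product of Ptpn11. GRB2 brings the exchange factor SOS1 to the membrane, where SOS1 loads RAS with GTP. GTPase-activating proteins such as RASA1 and neurofibromin, the product of Nf1, return RAS to its GDP-bound form, and KSR1 is a scaffold that holds RAF, MEK and ERK together. In mouse embryonic stem cells this route carries the FGF4 signal that favours exit from naive pluripotency, and loss of Grb2 or Ptpn11 is known to hold cells in the undifferentiated state. The arrays measure messenger RNA, not the phosphorylation or activity of these proteins.

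Each value rests on 1 array per group, so there was no test between the groups, no p-value and no replicate check. The number of arrays limits the precision. Levels are log2 intensities relative to the 75th percentile of the same array, which was 626 intensity units for shCtrl and 420 for shLincU, so a smaller intensity on the second array is not by itself a lower level. A difference is the log2 level on the shLincU array minus that on the shCtrl array, and a value of 0.58 is a 1.5-fold difference. The error given with a gene is the one the scanner software assigns, which mostly reflects a preset multiplicative error and is not a measured spread. Scaled instead to 8 E1A spike-in controls, the median of all genes moved by -0.88 and all 9 genes were lower on the shLincU array, so every direction is relative to the bulk of genes. LincU itself was not analysed here, the knockdown was not checked, and directions rest on the labels of the arrays.

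The probes that carry the results are printed first, because Ksr1 and Nf1 are each read by probes that disagree and Grb2 and Gab1 each rest on a single probe. The lowest and the highest probe are shown for genes whose measured probes differ by more than 0.5. Sequences are those of the array design, written 5′ to 3′, and capitals mark the stop triplets TAA, TAG and TGA in any of the 3 forward frames. A probe with no frame free of them is shown by its first 30 bases, the others by all 60.
Ksr1, lowest probe: gaatgTGAtgTAAaatttgtacagTAAaag
Ksr1, highest probe: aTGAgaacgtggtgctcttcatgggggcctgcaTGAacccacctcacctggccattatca
Nf1, lowest probe: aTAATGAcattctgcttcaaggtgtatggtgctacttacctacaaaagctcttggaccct
Nf1, highest probe: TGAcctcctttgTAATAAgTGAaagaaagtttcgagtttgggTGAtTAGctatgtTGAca
Grb2, only probe: attttggaattggagatatcaTGAagcctt
Gab1, only probe: aaggcacTGAtgtgcTAAtacagTGAttgg

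The lowest Ksr1 probe lies at chr11:78827088-78827147 and the highest at chr11:78840923-78840982, both on the minus strand in build mm9, the build that the array's header names. The first has stop triplets in every forward frame and a GC content of 23.3%, the lowest of the 23 probes. The second leaves frame 3 open and has a GC content of 55.0%, which Shc1's less bright probe shares as the highest. The Nf1 probes lie on the plus strand at chr11:79267446-79267639 and chr11:79278463-79278522. The lowest of them covers 194 bases of genome with a 60-base probe, as a probe across a splice junction does, and leaves frames 1 and 3 open. The highest was designed on a RIKEN cDNA clone and leaves frame 3 open. The Grb2 probe is at chr11:115505444-115505488 and the Gab1 probe at chr8:83289342-83289401, both on the minus strand. The position given for the Grb2 probe covers 45 bases of genome, fewer than the 60 bases of the probe. Of all 56605 probes, 20.3% have no open forward frame, and among the 23 there were 5. An open frame over 60 bases does not show that a probe lies in coding sequence.

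Of the 9 genes, Ksr1 alone was at least 1.5-fold apart, at -0.92 ± 0.19 (scanner software error, 2 probes), and none was at least 2-fold apart. Of all genes measured on both arrays, 9.62% were at least 1.5-fold apart, 4.78% higher and 4.84% lower, and 2.67% were at least 2-fold apart, so 1 of 9 is near the background. The other 8 genes lay between -0.30 (Rasa1) and 0.30 (Shc1), a difference of at most 1.23-fold. Shc1, Grb2 and Ptpn11 were higher on the shLincU array and Frs2, Sos1, Nf1, Gab1, Rasa1 and Ksr1 lower. With normexp background correction Sos1 stood at 0.04 and Nf1 at 0.0035, above 0 but below the median of all genes, which was then 0.09. The median over the 9 genes was -0.11, beside 0.02 over all genes. By probe, 20 of the 23 were well above background on both arrays, 7 of them higher and 13 lower, and 1 was at least 1.5-fold apart.

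**Figure D1:**
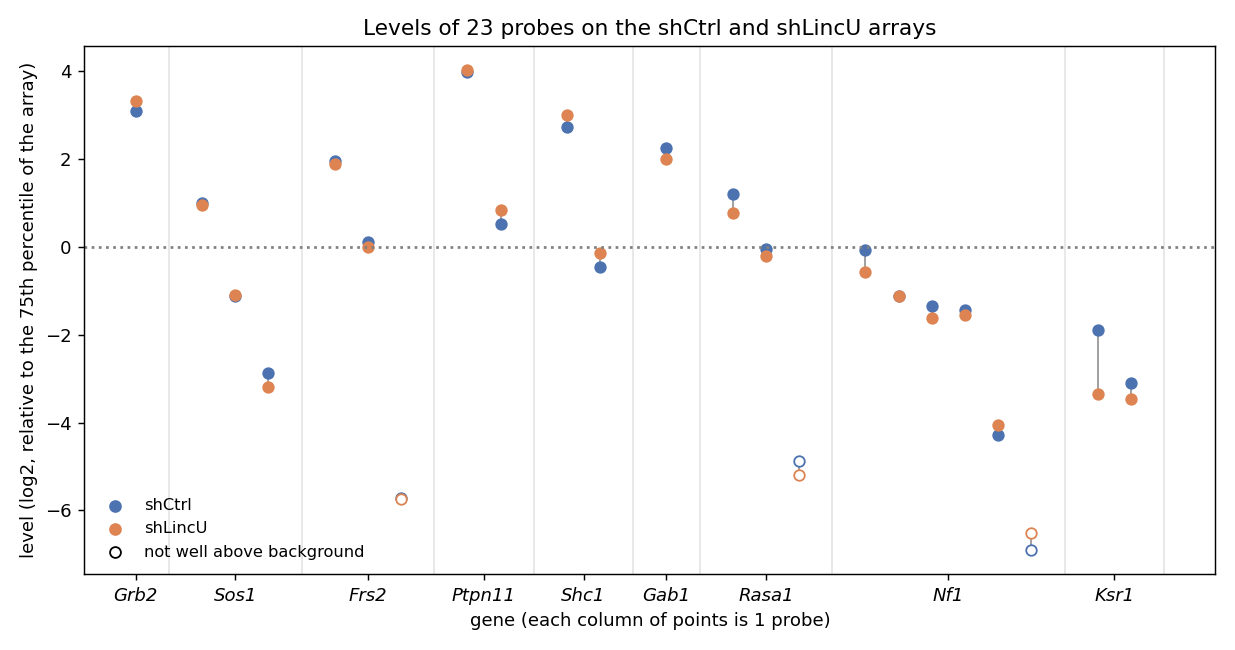
Level of each of the 23 probes (log2, relative to the 75th percentile of the array) on the shCtrl array (blue) and the shLincU array (orange), grouped by gene, with open points for probes not well above background. Both points of most probes nearly coincide, and the widest gap is that of the brighter Ksr1 probe; levels of different probes are not comparable with each other.

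Frs2 encodes the docking protein that couples FGF receptors to the pathway. Its brighter probe had an intensity of 2409 with shCtrl and 1562 with shLincU, and a second probe had 676 and 418. Relative to the arrays' own scale both were nearly level, at -0.05 and -0.12, and the gene stood at -0.08 ± 0.14 (scanner software error). The remaining probe, with 12.0 and 7.89, was not well above background on either array.

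Grb2 encodes the adaptor that links phosphorylated receptors and docking proteins to SOS. Its single probe had an intensity of 5344 with shCtrl and 4227 with shLincU. After scaling the gene was higher by 0.24 ± 0.20, a difference close to the size of the error. Of all genes, 40.3% were at least as far from 0. With 1 probe, Grb2 could not change under alternatives that filter, drop or choose among probes. Under those that rescale or correct the signal, other than spike-in scaling, it ran from 0.18 to 0.25.

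Shc1 encodes an adaptor that is phosphorylated by receptors and offers GRB2 another binding site. Its probes agreed closely. The brighter one had intensities of 4139 and 3355 and a difference of 0.27, and the other had 453 and 379 and a difference of 0.32. The gene was higher by 0.30 ± 0.14, the highest value of the 9, with an SD of 0.03 between its 2 probes against a median SD of 0.18 over the 7144 genes with several probes. Both probes lie on chromosome 3, at chr3:89232323-89232382 and chr3:89233868-89233927. Neither spot had at least 2 neighbours that were 2-fold apart in the same direction. Of all genes, 31.4% were at least as far from 0, so that the size of the difference is common on these arrays.

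Gab1 encodes a docking protein that binds GRB2 and recruits SHP2. Its single probe had an intensity of 2959 with shCtrl and 1675 with shLincU. The gene stood at -0.25 ± 0.20, with the opposite sign to its binding partner Grb2 and a similar size. With 1 probe, Gab1 could not change under alternatives that filter, drop or choose among probes. Under those that rescale or correct the signal, other than spike-in scaling, it ran from -0.29 to -0.23.

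Ptpn11 encodes SHP2, a tyrosine phosphatase with SH2 domains that is needed for full RAS activation downstream of many receptors. Its brighter probe, at chr5:121580585-121580644, had intensities of 9855 and 6858 and a difference of 0.05. The other, at chr5:121593145-121593611, covers 467 bases of genome and had 892 and 756 and a difference of 0.34. The gene mean was 0.19 ± 0.14, and its probes lay 0.29 apart. The difference of the brighter probe was smaller than its scanner software error of 0.20. Taken from the brighter probe alone, Ptpn11 was all but level between the arrays.

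Sos1 encodes the exchange factor itself and was read by 3 probes. The brightest, at chr17:80793433-80793492, had intensities of 1258 and 817 and a difference of -0.05. A second, designed on a cDNA clone, had 289 and 198 and a difference of 0.03. The dimmest had 86.2 and 46.4 and stood at -0.32, and it was the probe that set the gene mean of -0.11 ± 0.13. Of the 12 spots around its own, 2 were at least 2-fold higher on the shLincU array. Without it Sos1 stood at -0.01.

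Rasa1 encodes p120 RasGAP, a GTPase-activating protein that binds phosphorylated receptors. Its brighter probe, at chr13:85355480-85355539, had an intensity of 1446 with shCtrl and 716 with shLincU, a difference of -0.44. The second, which spans 1230 bases of genome at chr13:85356600-85357829, had 609 and 364 and a difference of -0.17. Both probes were lower, and the gene mean of -0.30 ± 0.14 was the lowest of the 9 after Ksr1. The spot of the second probe was not found by the scanner software on either array, and its signal was read at the expected position. Without it Rasa1 stood at -0.44. The remaining probe, with 21.5 and 11.5, was not well above background. Of all genes, 14.4% had a difference at or below that of Rasa1.

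Nf1 encodes neurofibromin, the other GTPase-activating protein of the group, and had the most probes, 6, of which 5 were measured. Their differences ran from -0.50 to 0.23 with an SD of 0.27, so the gene mean of -0.13 ± 0.11 hides a wide spread. The brightest probe, the one across 194 bases, had an intensity of 597 with shCtrl and 284 with shLincU. A probe at chr11:79158626-79158685 had 246 and 136 and stood at -0.27. The probe at chr11:79392693-79392752 had 229 and 144 and stood at -0.10, and the one at chr11:79244140-79244199 had 289.6 and 194 and stood at -0.01. Of the 5, the brightest was thus the lowest by difference. The dimmest measured probe, with 31.9 and 25.2, was the highest, and its spot was not found on the shCtrl array. A sixth probe, with 5.22 and 4.57, was not above background. The probes were designed on different transcripts and clones of the locus, and no transcript of Nf1 is singled out here.

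**Figure D2:**
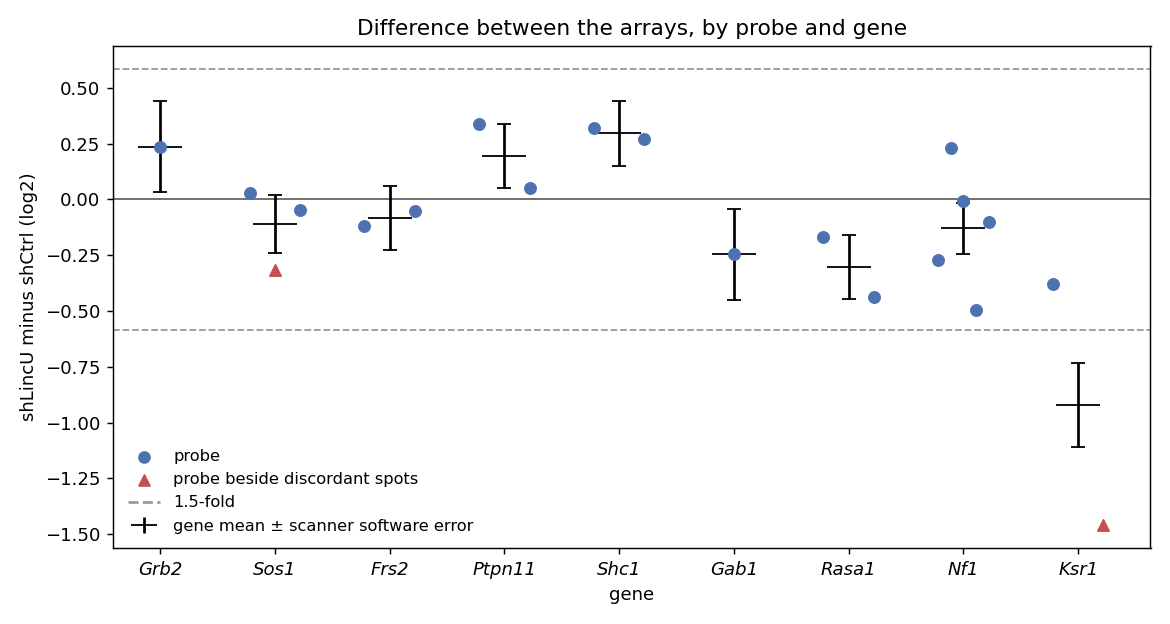
Difference between the arrays (log2, shLincU minus shCtrl) for each measured probe (points) and for the gene (bar, mean over its probes, with the error the scanner software assigns), with dashed lines at 1.5-fold. Only the Ksr1 mean passes a line, and its probes at -1.46 and -0.38 lie on either side of it; triangles mark probes whose spot lay beside discordant spots.

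Ksr1 encodes the scaffold kinase suppressor of Ras 1. It was the dimmest of the 9 genes, with 16.7% of all genes below its mean level. The lowest probe had an intensity of 169 with shCtrl and 41.3 with shLincU, a difference of -1.46. The highest had 73.6 and 37.9, a difference of -0.38. Both probes were lower on the shLincU array, by amounts 1.08 apart. Of the 4593 genes with exactly 2 measured probes, 2.61% had probes at least as far apart, and the median gap was 0.21. These genes are of every level and were not matched to Ksr1, so the share among genes as dim is not known.

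The spot of the lowest Ksr1 probe was not found by the scanner software on the shLincU array, where 14.5% of spots were not found, and was found on the shCtrl array. It also lay beside discordant spots, since 2 of its 14 neighbours were at least 2-fold lower on the shLincU array. That is the smallest number that counts. At least 2 discordant neighbours in the same direction, higher or lower, lay beside 6.03% of all spots. The spot of the highest probe was found on both arrays and did not lie beside discordant spots. Without the first probe Ksr1 stood at -0.38, under 1.5-fold. With normexp background correction Ksr1 stood at -0.29, and with the brightest probe alone at -1.46. The normexp values started from the raw mean signal of each spot, without the scanner software's detrending, and had a constant added. Ksr1 kept its sign in each of the 13 alternatives other than spike-in scaling that gave a value, and passed 1.5-fold in 10 of them. Several of the 10 could not change it. Both probes were well above background and in the lower rows, and the median of 2 probes is their mean. Whether the local signal on the slide set the difference was not tested.

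Dim genes differed more between these arrays than bright ones. Of the 25% of genes with the lowest mean level, where Ksr1 lies, 7.71% were at least 1.5-fold lower and 17.8% at least 1.5-fold apart in either direction, against 4.84% and 9.62% of all genes. In the 25% with the highest mean level, which hold Grb2, Ptpn11 and Gab1, 2.84% were at least 1.5-fold apart. Of all genes, 1.93% had a difference at or below that of Ksr1.

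**Figure D3:**
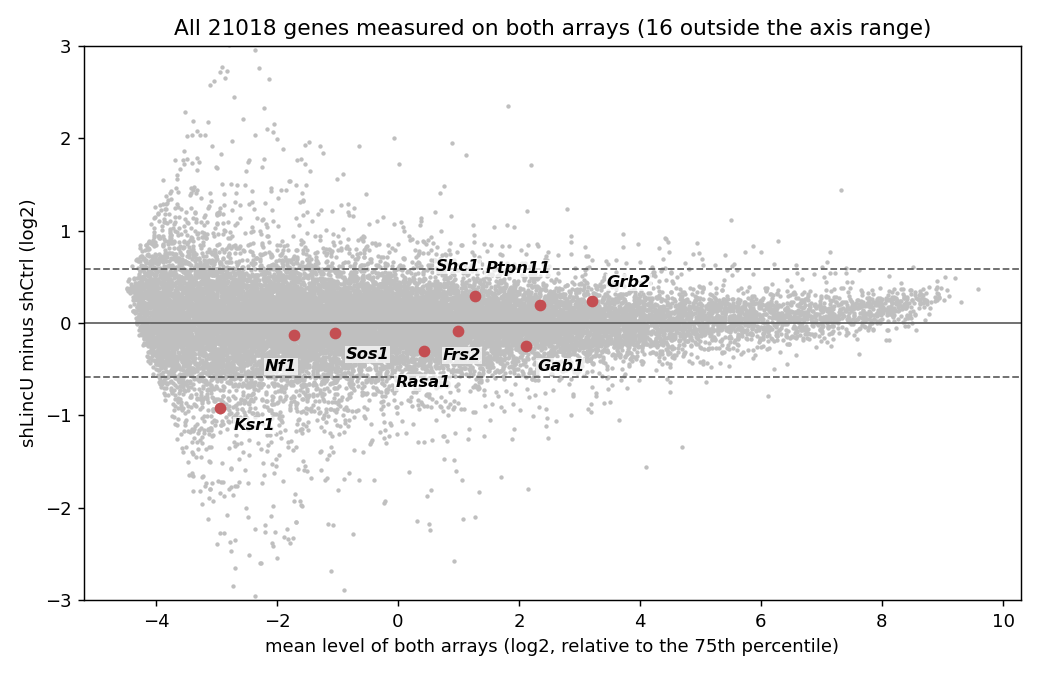
Mean level (log2, relative to the 75th percentile) against difference (log2, shLincU minus shCtrl) for the 21018 genes measured on both arrays (grey) with the 9 genes in red and dashed lines at 1.5-fold. Of the 9, the 8 between -0.30 and 0.30 lie within the bulk of genes and Ksr1 at -0.92 lies among the dim genes, whose differences spread more widely.

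Other genes with the same roles were read from 5 lists of 60 genes in all, of which 51 are not among the 9. Of these 51, 44 were measured on both arrays, 25 higher and 19 lower, with a median of 0.04. Of the 44, 1 was at least 1.5-fold higher, 1 at least 1.5-fold lower and none 2-fold apart, a share of 4.55% past 1.5-fold beside 9.62% of all genes. Pebp1, which encodes an inhibitor of RAF, stood at 0.59, only just past 1.5-fold, with levels of 7.11 under shCtrl and 7.71 under shLincU from 1 probe. Grb14, an adaptor that binds the insulin receptor, stood at -0.66, with levels of -1.22 and -1.87 from 1 probe.

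By role, the RAS GTPase-activating proteins had 7 of 8 measured members lower, Rasa1 and Nf1 among them, with a median of -0.16 and none past 1.5-fold. Rasa4 was the lowest at -0.37 and Rasa3 the only one higher, at 0.24. With normexp background correction the median of the list was 0.01, beside 0.09 over all genes. The exchange factors had 4 of 6 measured members higher, with a median of 0.12 and none past 1.5-fold, from Sos1 at -0.11 to Rasgrp4 at 0.25. In the upper rows of the slide alone their median was -0.04.

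The adaptor and docking proteins went both ways, 11 higher and 9 lower of 20 measured, with a median of 0.05. They ran from Grb14 to Cblb, a ubiquitin ligase of activated receptors, at 0.45. Ptpn6, which encodes the relative of SHP2 named SHP1, was higher by 0.33, so both SH2 domain phosphatases were on the same side. Among scaffolds and regulators of RAF and MEK, 10 of 17 were higher and the median was 0.04, with Ksr1 the lowest and Pebp1 the highest. Ksr2, the paralogue of Ksr1, stood at -0.10 with an SD of 0.38 between its 2 probes.

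**Figure D4:**
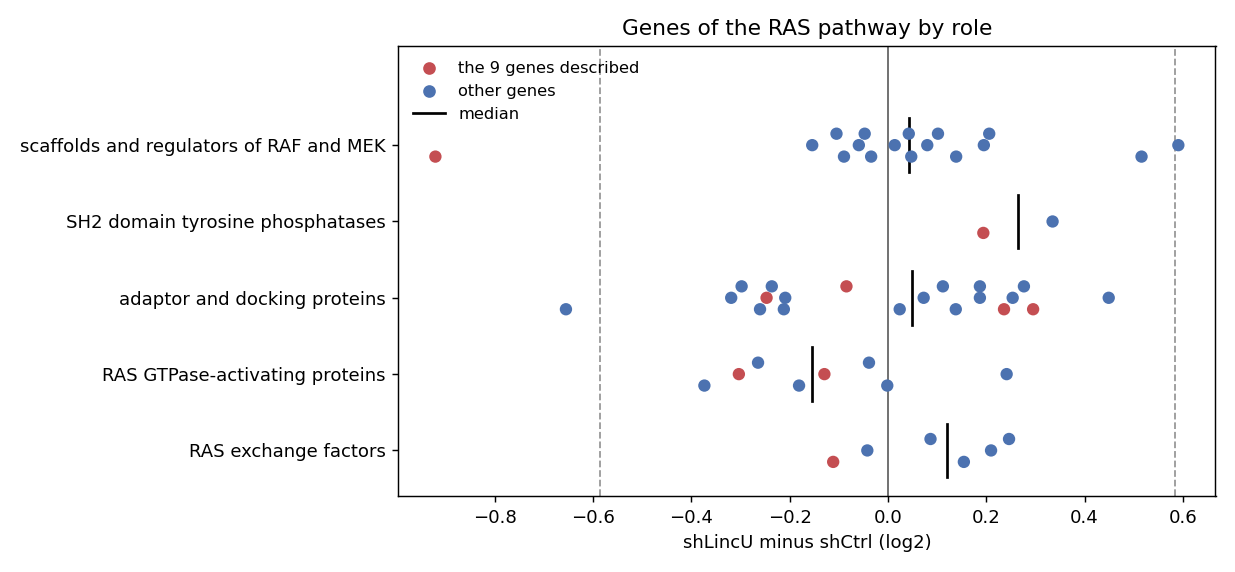
Difference (log2, shLincU minus shCtrl) of each measured gene in 5 lists of RAS pathway genes by role, with the 9 genes in red, other genes in blue, list medians as black bars and dashed lines at 1.5-fold. Most points lie between the lines; Ksr1 at -0.92 and Grb14 at -0.66 lie below them and Pebp1 at 0.59 lies on the upper one.

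The cells matched their label by their markers. Of 10 embryonic stem cell markers all 10 were well above background on both arrays and none was 1.5-fold apart. Their median difference was 0.0073, with 6 higher and 4 lower on the shLincU array. Their summed level was 831 with shCtrl and 926 with shLincU, in units of each array's 75th percentile. Dppa5a, the brightest of them with levels of 9.19 and 9.42, weighs most in that sum. Markers of fibroblast feeder cells differed between the groups but not all in the same direction, with 7 measured markers lower on the shLincU array and 4 higher. At 1.5-fold, 6 of 11 measured markers were lower and 1 higher, and the twelfth, Lum, was well above background on the shLincU array alone. The summed level of the measured feeder markers was 12.8 with shCtrl and 6.82 with shLincU. Thy1, the brightest of them with levels of 2.48 and 1.54, weighs most in that sum. Fibroblasts also express genes of this pathway, and the part of feeder RNA in the differences above was not tested. The summed level of 6 endoderm markers was 0.59 and 0.72, with 5 of the 6 higher on the shLincU array. Of these 1, Gata4, was at least 1.5-fold higher, at 0.81 from 1 probe. All 6 were dim, with levels from -4.42 (Foxa2, shCtrl) to -2.36 (Gata4, shLincU). The lowest level well above background was -4.72 with shCtrl and -4.34 with shLincU. The differences of Gata6, Sox17, Dab2 and Sox7 were smaller than their scanner software error. The part of endoderm cells was not tested either. In such bulk RNA, fewer cells of a type and less RNA per cell cannot be told apart. Spots at least 2-fold apart made up 4.09% of those in the lower rows of the slide and 1.34% in the upper rows. Of the 23 probes 12 lay in the lower rows, those of Ksr1 and Grb2 among them.

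**Figure D5:**
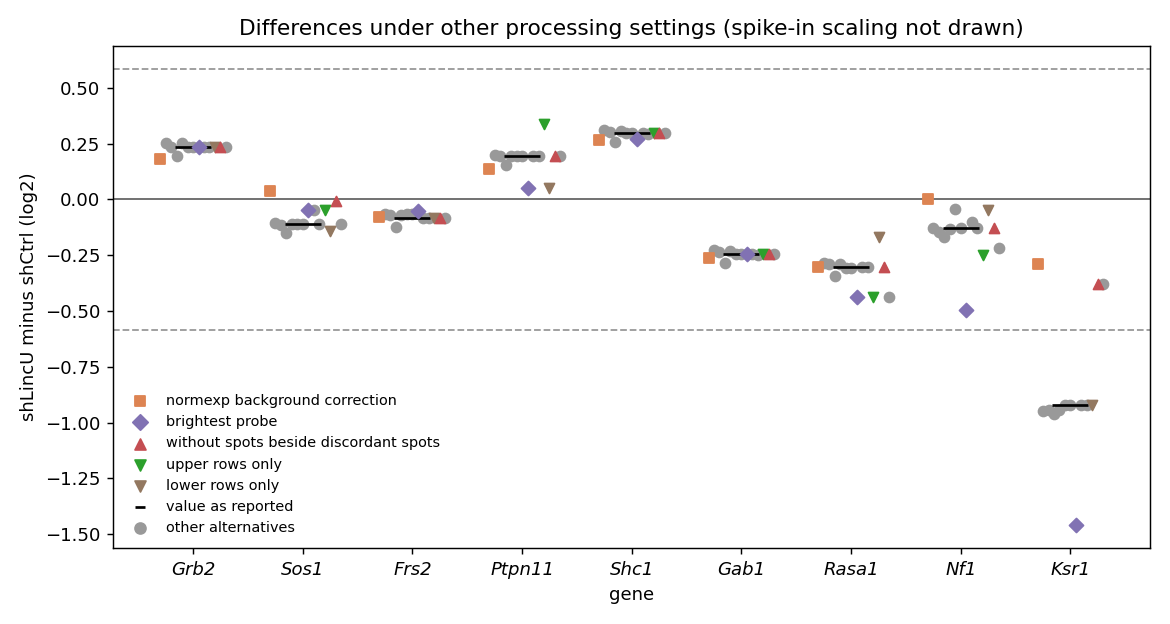
Difference (log2, shLincU minus shCtrl) of the 9 genes as reported (black bar) and under each alternative that gave a value, other than spike-in scaling, with dashed lines at 1.5-fold. The values of Grb2, Frs2, Shc1 and Gab1 hardly move, while Ksr1 runs from -1.46 with the brightest probe to -0.29 with normexp background correction. Grb2 and Gab1 rest on 1 probe each, so alternatives that filter, drop or choose among probes cannot move them.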

How the data were processed

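RNA of 1 shCtrl and 1 shLincU sample was hybridised to one-colour arrays of the same slide. The deposited scanner files hold intensity values per spot, which the authors extracted with version 10.7.1.1 of Agilent Feature Extraction according to the submitters' processing notes; per the file headers they were background-corrected by spatial detrending and a multiplicative detrend, with other columns of flags. The deposited value table holds log2 values, normalized in a way not given in the sources used here. Its medians over the non-control probes were 5.66 and 5.66. Its slope on the scanner log2 signal was 0.98 and 1.01, which makes it a log2 scale that runs the same way as the signal; its centring is unknown.

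Outlier spots were left out (98 and 138), spots of a probe averaged, and log2 signals taken minus the 75th percentile over probes. For each gene, differences were averaged over the probes that both arrays measured well above background, 60.9% of probes being so with shCtrl and 57.9% with shLincU. No spot was saturated. A simulation shifted the shCtrl signals of chosen genes, all probes of a gene alike, and added noise of the size of the scanner software's error. It checked the calculation only. It held no disagreement between probes, no local signal on the slide and no spread between samples, so it does not bear on the precision of the differences. A spot lay beside discordant spots when at least 2 of up to 14 neighbours, within 2 rows and 1 column, differed 2-fold in one direction. All 9 genes were named, and of the other pathway genes those past 1.5-fold and the extremes of each list. Ksr2, Lum, Thy1, Dppa5a and Gata4 were named after their values were seen. With 2 arrays no gene of like pattern was sought. The genes, lists and alternatives were chosen with earlier results of these data known; leaving out spots not found was added after seeing the files. Coordinates are the array's, in mm9. Python 3.11.15, numpy 2.4.6, pandas 2.3.3, R 4.3.3 and limma 3.58.1 (normexp with an offset of 50, quantile, cyclic loess) were used.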

Additional observations from a re-analysis of the deposited data

How the results depend on the processing

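No paired analysis was possible because there is a single array on each side, and none could be left out. An alternative was counted as moving a gene when it did so by more than the scanner software's error. Of 121 values of the 9 genes under alternatives other than spike-in scaling, 113 moved by less. This count includes values that could not move, because the alternative left the gene's measured probes and their signals as they were. With normexp background correction Ksr1 was at -0.29, Nf1 at 0.0035 and Sos1 at 0.038, the GTPase-activating list at 0.0074, the median of all genes at 0.09, and 0 of the 9 genes were 1.5-fold apart, beside 967 of all genes (203 at 2-fold). With the brightest probe Nf1 was at -0.50 and Ksr1 at -1.46, and 1 of the 9 was 2-fold apart, beside 594 of all genes. Without spots beside discordant spots Ksr1 was at -0.38 and 0 of the 9 were 1.5-fold apart, beside 1773 of all genes, and without spots not found the values were -0.38, 0 and 1794. In the upper rows, where Grb2, Frs2 and Ksr1 had no measured probe, Nf1 was at -0.25 and the exchange factors at -0.041. None of the 9 genes that had a value there was 1.5-fold apart, but Ksr1 could not be counted. Of all genes 1065 were 1.5-fold and 240 2-fold apart in these rows. Shc1 and Gab1 had no probe in the lower rows. Without a background filter 6181 of all genes were 1.5-fold and 2793 2-fold apart, and with the positive and significant flag 4688 and 1856, against 2022 and 562 as reported. Alternatives that change the filter, the rows or the spots also change which genes are counted. Their counts of all genes are therefore not shares of the same total and cannot be compared as rates. Spike-in scaling moved all genes alike: Ksr1 was at -1.80, Rasa1 at -1.19, Gab1 at -1.13, Nf1 at -1.01, Sos1 at -0.99, Frs2 at -0.97, Ptpn11 at -0.69, Grb2 at -0.65 and Shc1 at -0.59. The medians of the GTPase-activating, scaffold, adaptor, exchange factor and phosphatase lists were then -1.04, -0.84, -0.83, -0.76 and -0.62, with 9 of the 9 genes 1.5-fold and 4 2-fold apart, and 17654 and 6540 of all genes. Causes were not tested. Dim probes limit what can be read: 39.1% of probes with shCtrl and 42.1% with shLincU were not well above background.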
